A study of Homo sapiens with 6 samples.

Results

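The genes described here are 10 imprinted genes, H19, IGF2, MEG3, DLK1, PEG3, PEG10, NDN, SNRPN, MEST and PLAGL1. They were chosen by name, and all 10 had a row among the 61267 genes of the deposited count table. RNA was sequenced from THP-1 cells, a line from a human monocytic leukemia, after 48 h with the phorbol ester PMA at 100 ng/ml, a treatment that makes these cells adherent. The 6 libraries fall into 3 labelled NC and 3 labelled KD, and by the labels all 6 share the line and the PMA treatment. The labels spell out neither abbreviation and name no target for KD, although the series title names METTL1, an enzyme that places 7-methylguanosine on RNA. The labels do not say whether the 3 samples of a group were separate cultures. The p-values therefore rest on the spread between these libraries, which may be technical.

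Imprinted genes are expressed mainly from the chromosome copy of a single parent. The copies are told apart by DNA methylation laid down in the germ line on the control region of a single parental copy, which is the silent copy for some genes and the expressed copy for others such as IGF2 and DLK1. Neighbouring imprinted genes are often controlled together from a shared control region. Many of these genes act on fetal growth and fall in level after birth. H19 and MEG3 are long noncoding RNAs made from the maternal copy, and the other 8 are expressed from the paternal copy. The counts are per gene and do not separate the parental copies, so they give levels and not imprinting.

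Total counts per library ran from 37628972 to 42970216. METTL1 itself held 596, 653 and 642 counts in the NC libraries and 567, 528 and 524 in the KD libraries, and it did not pass the test (log2 fold change -0.10, SE 0.0765, edgeR adjusted p = 0.216), although it did with library sizes alone (-0.29, adjusted p = 0.00249) and on a scale that holds 40 leukocyte-restricted genes level (-1.30). Directions below are therefore those of the libraries labelled KD against the libraries labelled NC. In edgeR's quasi-likelihood test over 21905 genes, 76.5% had an adjusted p under 0.05 and are said to have a call, 36.2% higher and 40.3% lower in KD. Monocyte and macrophage markers such as CD68 and SPI1 were present in all 6 libraries, and 13 of 14 tested members of that list were higher in KD and 0 lower. A list of 40 leukocyte-restricted genes had 38 higher, 0 lower and 2 without a call. Its summed level was 3988 to 4006 CPM (counts per 1000000, scaled by edgeR's TMM factors) in NC and 9833 to 10156 CPM in KD. A list of 16 genes that are high in HEK293-type embryonic kidney cells had 14 lower and 2 higher, with a summed level of 2849.7 to 3286 CPM in NC and 85.4 to 95.9 CPM in KD. LIN28B and ZCCHC12 of that list had no count in any KD library, and no gene of the list was at 0 in an NC library. CDKN2A, a gene of that list which THP-1 cells are known to lack, held 1484, 1521 and 1637 counts in NC and 0, 7 and 6 in KD. This list and the other lists given here were written with earlier results of these data known, so their directions are no separate support. SPI1, CSF1R, ITGAM, ITGAX and CD33 are on both the leukocyte list and the monocyte and macrophage list. The CDKN2A counts in NC go against a label of THP-1 cells alone. Whether the NC and KD libraries hold only THP-1 cells was not tested. The summed level of epithelial markers was 129 to 135 CPM in NC and 16.3 to 16.8 CPM in KD, and that of fibroblast and mesenchymal markers 48.6 to 49.0 CPM against 127 to 130 CPM. Of 7 tested fibroblast markers 4 were higher and 3 lower, and PDGFRA alone went from 21.7 to 101 CPM. Lymphoid markers summed to 8.88 to 10.2 CPM in NC and 16.6 to 18.6 CPM in KD, and erythroid and megakaryocytic markers to 2.46 to 3.95 CPM and 1.39 to 1.60 CPM. The part of these differences in the results below was not tested, and in bulk RNA fewer cells of a type and less RNA per cell cannot be told apart.

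Of the 10 imprinted genes, 5 passed the filter on low counts (H19, IGF2, PEG10, SNRPN and PLAGL1) and 4 of these 5 passed the test, against 76.5% of all tested genes. IGF2, PLAGL1 and PEG10 were lower in KD, SNRPN was higher, and H19 did not pass. Those 4 genes had no overlap in CPM between NC and KD libraries, as had 78.0% of all tested genes. MEST was counted at a low level, mostly in NC. DLK1 and NDN had no count in any library, and MEG3 and PEG3 had 2 to 4 counts in all 6 libraries together.

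**Figure D1:**
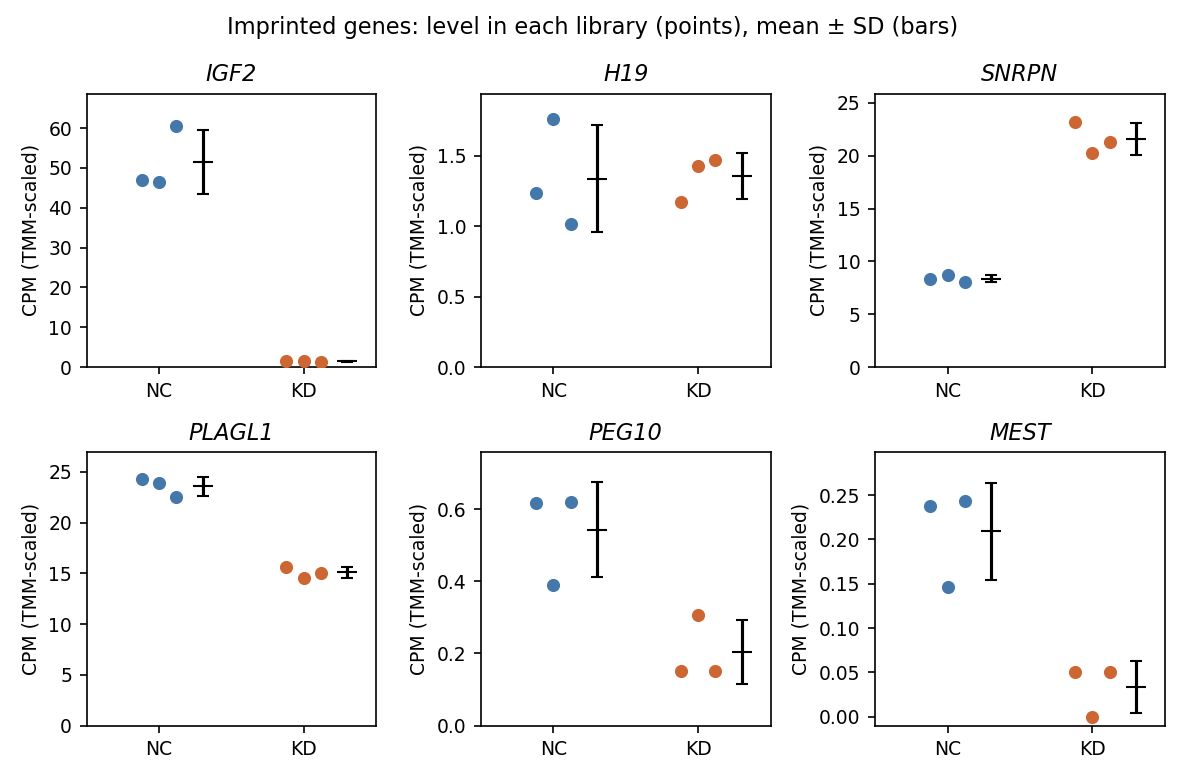
Level of 6 imprinted genes in each library, in TMM-scaled CPM on a linear axis, with 3 NC libraries (blue) and 3 KD libraries (orange) as points and the group mean ± SD as black bars. IGF2 lies between 46.5 and 60.6 CPM in NC and between 1.42 and 1.52 CPM in KD, SNRPN is the gene whose KD points lie above its NC points, and the H19 points of the groups overlap.

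IGF2, the fetal growth factor that signals through the type 1 IGF receptor and the insulin receptor, had the largest log2 fold change of the 5 tested genes. The gene lies on chromosome 11 from 2129112 to 2158391 (minus strand, GRCh38). It held 1983, 1908 and 2739 counts in NC replicates 1 to 3 and 60, 58 and 56 counts in the KD replicates. The lowest NC library thus stood more than an order of magnitude above the highest KD library. The NC level was 51.4 ± 7.99 CPM and the KD level 1.47 ± 0.0531 CPM (SD, n = 3 each), a 34.8-fold fall with a 95% interval of 28.9 to 41.9. On the log2 scale the difference, KD over NC, was -5.12 (SE 0.126, edgeR adjusted p = 1.11e-16). Only 3.13% of all tested genes had a lower log2 fold change than IGF2. NC replicate 3 was the highest library for this gene, at 60.6 CPM against 47.0 and 46.5 CPM, and without it the log2 fold change was -4.99.

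Reads in the IGF2 exons can belong to more than 1 annotated gene. Of its 7146 exon bases, 2711 also lie in exons of the unnamed gene ENSG00000284779, 1460 in exons of the readthrough gene INS-IGF2 and 333 in exons of the antisense gene IGF2-AS. These genes were lower as well. ENSG00000284779 had a log2 fold change of -5.10 (SE 0.150) and INS-IGF2 of -4.26 (SE 0.545). IGF2-AS held 14, 6 and 9 counts in NC and 0 in each KD library, and was not tested. The sources used here do not give how shared exons and strand were treated in counting, and reads of these rows and of IGF2 cannot be told apart.

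H19 is the maternally expressed noncoding RNA that lies 124560 bases from IGF2 on the same strand (chromosome 11, 1995166 to 2004552). The pair shares enhancers, and a methylation-sensitive CTCF-bound region between them is known to decide which of them the enhancers reach. H19 held 52, 72 and 46 counts in NC and 46, 56 and 58 in KD. In CPM the highest and the lowest value both belonged to the NC group, and the groups overlapped. The NC level of H19 was 1.34 ± 0.380 CPM, and the KD level was 1.36 ± 0.163 CPM (n = 3 each). Its log2 fold change was 0.027 with a 95% interval of -0.46 to 0.52 (edgeR adjusted p = 0.922), and a change within that interval remains possible. With library sizes alone the value was -0.16 (adjusted p = 0.552), and on a scale that holds the 40 leukocyte-restricted genes level (below, the leukocyte scale) it was -1.16 (adjusted p = 3.25e-05). Per exon base, IGF2 was above H19 in every NC library, by 18.5, 12.8 and 28.8 times, and below it in every KD library, where the ratio was 0.632, 0.502 and 0.468. This ratio within a library does not depend on the scaling.

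H19 also carries the hairpin of miR-675, which lies wholly within its exons (73 bases). The row of the hairpin held 1 to 7 counts per library, and the mature forms were not measured. The mature forms are shown because they are the small RNA product of this member. Their sequences come from RefSeq (GRCh38.p14), and the capitals mark the seed, bases 2 to 8 from the 5′ end, which differs between the arms.
hsa-miR-675-5p: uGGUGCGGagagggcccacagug
hsa-miR-675-3p: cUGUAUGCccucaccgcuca

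Of 4 other tested imprinted genes of the chromosome 11 domain, 1 was higher, 0 were lower and 3 had no call. Among all tested genes 76.5% had a call, and 4 genes are too few to compare with that share. KCNQ1OT1, the paternally expressed antisense RNA of the neighbouring KCNQ1 domain, went from 7.96 ± 1.49 CPM to 8.68 ± 0.592 CPM without a call (log2 fold change 0.13, edgeR adjusted p = 0.312), except without NC replicate 1, where it was 0.28 (adjusted p = 0.0330), and on the leukocyte scale, where it was -1.06. The potassium channel gene KCNQ1 (log2 fold change 0.25) and PHLDA2, which restrains placental growth (0.34), had no call either, and were at -0.94 and -0.85 on the leukocyte scale. SLC22A18, a transporter gene, rose from 0.740 ± 0.255 to 1.89 ± 0.170 CPM (log2 fold change 1.36, adjusted p = 2.67e-05), with no call left on the leukocyte scale (0.17, adjusted p = 0.520). CDKN1C, the growth-restraining CDK inhibitor of this domain, held 10, 0 and 6 counts in NC and 10, 10 and 4 in KD and was not tested. MRPL23, the nearest tested gene on the other side of H19, had a log2 fold change of -0.20 (adjusted p = 0.0783) and was called lower with library sizes alone (-0.38) and on the leukocyte scale (-1.39). C11orf21, the nearest tested gene beyond IGF2, was higher (1.30), with no call on the leukocyte scale (0.11).

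SNRPN was the imprinted gene that rose. It encodes SmN, a core protein of spliceosomal snRNPs, and lies in the chromosome 15 domain whose paternal genes are lost in Prader-Willi syndrome (24823637 to 24978723, plus strand). It held 352, 357 and 366 counts in NC and 914, 795 and 842 in KD. All KD libraries lay above all NC libraries. Its NC level was 8.39 ± 0.306 CPM and its KD level 21.6 ± 1.49 CPM (n = 3 each), a log2 difference of 1.37 (SE 0.0775, edgeR adjusted p = 3.02e-14). The leukocyte-restricted genes had a median log2 fold change of 1.20, and on the leukocyte scale the SNRPN value was 0.17 and did not pass (adjusted p = 0.0501).

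Transcripts that overlap or follow SNRPN on the same strand were higher as well. SNURF, a short upstream reading frame on the same transcript as SNRPN, had a log2 fold change of 1.43 (SE 0.0783), and of 0.24 on the leukocyte scale. It shares 813 of the 3408 SNRPN exon bases, and ENSG00000214265 (1.53, or 0.33 on the leukocyte scale) shares 541, so that these rows partly count the same reads. SNHG14, the long host RNA of the small nucleolar RNAs that also runs antisense to UBE3A, rose from 18.5 ± 0.325 to 40.1 ± 0.139 CPM (log2 fold change 1.12, but -0.075 on the leukocyte scale), and shares 141 bases with SNRPN. PWAR5, a noncoding RNA that shares no exon base with SNRPN, rose from 0.908 ± 0.135 to 3.00 ± 0.111 CPM (log2 fold change 1.72, or 0.54 on the leukocyte scale). PWAR5 lies within the span of SNHG14 on the same strand, so reads of these rows may not be separate. The 31 SNORD116 rows together held 10, 11 and 15 counts in NC and 39, 29 and 29 in KD, and the 49 SNORD115 rows 0 to 3 counts in every library. None of these small RNA rows passed the filter.

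Of the other tested genes of this domain, UBE3A, ATP10A and MKRN3 were higher by smaller amounts or at low counts. None of these 3 was above 0 on the leukocyte scale. UBE3A, a ubiquitin ligase that is imprinted in neurons, had a log2 fold change of 0.26, with library sizes alone 0.077 (no call) and on the leukocyte scale -0.93. The span of UBE3A overlaps that of SNHG14 on the other strand. How strand was treated in counting is not given, so reads of these rows may not be separate. The phospholipid flippase ATP10A rose by 0.73 on the log2 scale, or -0.46 on the leukocyte scale. MKRN3, a RING finger gene that restrains puberty, rose from 0.520 ± 0.186 to 1.13 ± 0.335 CPM (log2 fold change 1.13, SE 0.319, edgeR adjusted p = 0.00260) and was at -0.054 on the leukocyte scale. NDN (chromosome 15, 23685400 to 23687305), which encodes the MAGE-family growth suppressor necdin, lies between MKRN3 and SNRPN and had no count in any library. With a floor of 3 counts this allows a level of up to 0.0664 to 0.0765 CPM, depending on the library. MAGEL2, its MAGE-family neighbour, held 6, 6 and 0 counts in NC and 0, 2 and 0 in KD.

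The start of the transcript that SNRPN and SNURF share is shown because both rose and because this region overlaps the control region of the domain. The 250 bases before that start (chr15:24954737-24954986, plus strand, RefSeq, GRCh38.p14) are printed 5′ to 3′. Capitals mark TGCCGC, the hexamer recognised by ZFP57 when methylated, or its reverse complement GCGGCA.
SNRPN and SNURF: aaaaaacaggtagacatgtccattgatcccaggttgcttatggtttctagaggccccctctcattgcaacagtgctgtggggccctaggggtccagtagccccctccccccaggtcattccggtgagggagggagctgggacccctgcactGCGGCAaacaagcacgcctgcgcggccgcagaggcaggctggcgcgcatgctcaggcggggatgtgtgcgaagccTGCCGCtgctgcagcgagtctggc
This stretch holds 12 CpG and 2 matches. Over the full window of 300 bases, which runs 50 bases past the start, SNRPN has 18 CpG against a median of 14 over 34943 RefSeq start windows, and 16.7% of those windows hold the hexamer on either strand. A match is a description of the letters, not of a bound site.

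PLAGL1, a zinc finger transcription factor that restrains proliferation, was lower in KD. It lies on chromosome 6 from 143940300 to 144064599 (minus strand) and held 1023, 979 and 1019 counts in NC and 617, 571 and 593 in KD. All KD libraries were below all NC libraries. Its level was 23.6 ± 0.897 CPM in NC and 15.1 ± 0.557 CPM in KD (n = 3 each), a 1.56-fold fall (95% interval 1.42 to 1.72; log2 difference -0.64, SE 0.0661, edgeR adjusted p = 3.22e-09). HYMAI, the paternally expressed noncoding RNA that starts within PLAGL1 on the same strand, held 51, 39 and 46 counts in NC and 32, 47 and 50 in KD and had no call (log2 fold change 0.04, 95% interval -0.47 to 0.56, and -1.15 on the leukocyte scale). It shares 289 exon bases with PLAGL1. Whether the 2 genes' log2 fold changes differ was not tested. SF3B5, the nearest tested gene upstream of PLAGL1, had no call with TMM (log2 fold change -0.15) and was called lower with library sizes alone (-0.33) and on the leukocyte scale (-1.34), and ENSG00000280148 on the other side was at 0.14, or -1.06 on the leukocyte scale.

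PLAGL1 has several annotated starts, of which the inner one, shared with HYMAI, is known to be imprinted, while the outermost one is used from both copies. Both are shown because the count per gene adds up all starts and cannot say which of them fell. The sequences are the 250 bases before each start (RefSeq, GRCh38.p14), printed 5′ to 3′ on the minus strand, with the same hexamer in capitals.
PLAGL1 and HYMAI, inner start (chr6:144008260-144008509): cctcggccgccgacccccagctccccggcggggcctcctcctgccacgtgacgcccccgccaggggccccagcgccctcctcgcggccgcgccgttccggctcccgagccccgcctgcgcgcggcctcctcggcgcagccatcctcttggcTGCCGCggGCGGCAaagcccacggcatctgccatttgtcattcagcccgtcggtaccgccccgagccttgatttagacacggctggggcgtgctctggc
PLAGL1, outermost start (chr6:144064600-144064849): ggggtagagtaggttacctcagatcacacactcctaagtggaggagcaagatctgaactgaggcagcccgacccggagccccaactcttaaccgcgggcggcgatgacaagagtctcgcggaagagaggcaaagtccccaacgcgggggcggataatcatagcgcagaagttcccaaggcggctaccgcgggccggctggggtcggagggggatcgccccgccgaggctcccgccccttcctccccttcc
The inner stretch holds 32 CpG and 2 hexamer matches and the outermost 21 CpG and 0 matches. With 39 CpG in its full window, the inner start is among the 8.71% of windows with at least that many.

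PEG10, a gene derived from a retrotransposon and needed in the placenta, was low throughout. It lies on chromosome 7 from 94656325 to 94669695 (plus strand) and held 26, 16 and 28 counts in NC and 6, 12 and 6 in KD. The groups did not overlap, with NC replicate 2 the lowest NC library and KD replicate 2 the highest KD library. Its NC level was 0.542 ± 0.132 CPM and its KD level 0.204 ± 0.0889 CPM, a log2 difference of -1.41 (SE 0.433, edgeR adjusted p = 0.00523). The ratio of the summed counts, NC over KD, was 2.68 (exact binomial 95% interval 1.67 to 4.46, counting error only). All of these library counts were even, and if both reads of a fragment were counted the interval is too narrow. The gene passed the filter through its NC counts, so its call is given for itself and not as support for the group. It was not tested when counts were divided by 2 or when a mean of at least 1 CPM was required.

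SGCE, which encodes epsilon-sarcoglycan, starts head to head with PEG10 on the other strand and shares 219 exon bases with it. It fell from 4.53 ± 0.607 to 0.492 ± 0.218 CPM (log2 fold change -3.20, SE 0.227). Reads of PEG10 and SGCE may not be separate, since how strand was treated in counting is not given. PPP1R9A, the neurabin gene 237507 bases beyond PEG10, fell from 14.8 ± 0.341 to 0.254 ± 0.103 CPM (log2 fold change -5.85). TFPI2, a protease inhibitor gene on the SGCE side, went the other way, from 60.5 ± 1.42 to 162 ± 3.85 CPM (log2 fold change 1.42, or 0.23 on the leukocyte scale). CASD1, a sialic acid acetyltransferase gene that is the nearest tested neighbour clear of PEG10 on that side, had a log2 fold change of -0.57, and -0.41 with no call without NC replicate 1 (adjusted p = 0.0588). The span of CASD1 overlaps that of SGCE on the other strand, so reads of CASD1 and SGCE may not be separate.

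MEST, which encodes a hydrolase-like protein of mesoderm, held 10, 6 and 11 counts in NC and 2, 0 and 2 in KD (chromosome 7, 130486171 to 130506465, plus strand). All NC libraries were above all KD libraries, but the gene did not pass the filter. Summed over libraries it had 27 counts in NC and 4 in KD, a ratio of 6.21 with an exact binomial 95% interval of 2.16 to 24.4 that covers counting error only. Of its 6 counts 5 were even, and if both reads of a fragment were counted the interval is too narrow. With no filter on low counts its log2 fold change was -2.53 (edgeR adjusted p = 0.0190). COPG2, a coat protein gene that ends against MEST on the other strand and shares 228 exon bases with it, fell from 7.07 ± 0.355 to 1.75 ± 0.352 CPM (log2 fold change -2.01). How strand was treated in counting is not given, so reads of MEST and COPG2 may not be separate. CEP41, a ciliary gene 43738 bases away on the other side, had a log2 fold change of -0.80, and ENSG00000270953, 1195 bases beyond MEST, of -2.51. ENSG00000270953 lies within the span of COPG2 on the other strand, so reads of these rows may not be separate either. MESTIT1, the antisense RNA at the MEST start, and the row of miR-335, which lies in a MEST intron, had no count in any library.

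The chromosome 14 and chromosome 19 genes were at or near 0. DLK1 (chromosome 14, 100725705 to 100738224), a membrane protein related to Notch ligands, had no count in any library. MEG3 (100779410 to 100861031), the maternal noncoding RNA of the same domain, held 2 counts in NC replicate 3, 2 in KD replicate 2 and 0 elsewhere. RTL1 and MEG8 of that domain had no count, MEG9 had 2, 0 and 2 counts in NC and 0 in KD, and DIO3, the thyroid hormone deiodinase gene at the far end, had 10, 4 and 2 counts in NC and 0 in KD. BEGAIN, a synaptic scaffold gene and the nearest tested gene before DLK1, had a log2 fold change of -0.63, and PPP2R5C, the nearest beyond MEG3, of -0.27. PEG3 (chromosome 19, 56810077 to 56840728), a zinc finger gene, held 2 counts in KD replicate 1 and 0 elsewhere, which equal those of ZIM2, with which it shares 1264 exon bases. ZNF264, the nearest tested gene beyond PEG3, rose by 0.61 on the log2 scale, or -0.59 on the leukocyte scale, and ZIM2-AS1 on the other side had no call (0.16).

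**Figure D2:**
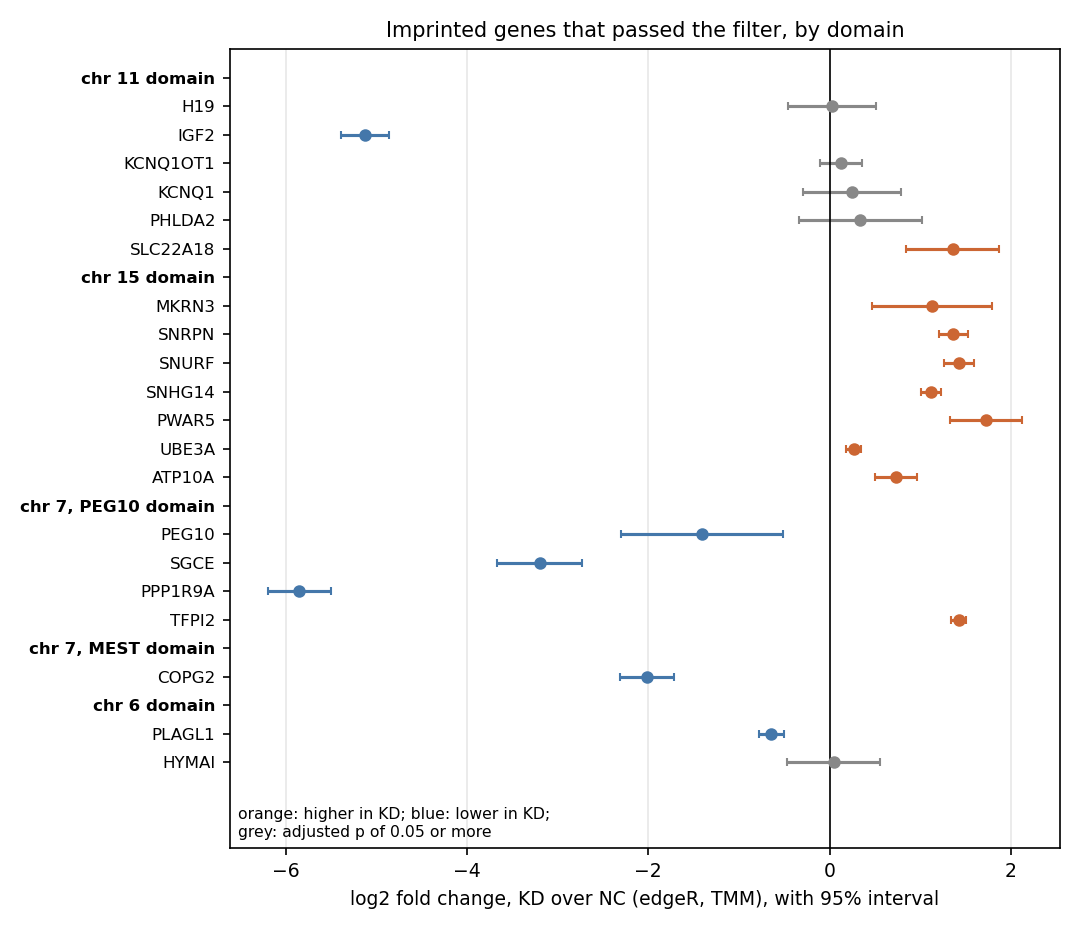
Log2 fold change, KD over NC, of the imprinted genes that passed the filter, grouped by chromosome domain, with 95% intervals from the edgeR fit on TMM-scaled counts. Orange points passed the test higher in KD, blue points passed lower, and grey points did not pass. The 7 genes of the chromosome 15 domain lie above 0 on this scale, although MKRN3, SNHG14, UBE3A and ATP10A are below 0 on the leukocyte scale, and the PEG10 domain holds points on both sides.

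Compared per exon length, the order of the genes differed between the groups. In NC, IGF2 was the highest at 7.19 ± 1.12 CPM per kilobase of exon, followed by PLAGL1 (3.68 ± 0.140), SNRPN (2.46 ± 0.0897), H19 (0.386 ± 0.110), PEG10 (0.0811 ± 0.0197) and MEST (0.0438 ± 0.0114). In KD, SNRPN was the highest at 6.34 ± 0.437 CPM per kilobase, followed by PLAGL1 (2.35 ± 0.0869), H19 (0.392 ± 0.0471), IGF2 (0.206 ± 0.00743), PEG10 (0.0304 ± 0.0133) and MEST (0.00710 ± 0.00615). Neighbours in either order did not overlap over the 3 libraries. The exon length is that of all annotated exons of a gene, used or not.

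The wider set of imprinted genes moved in both directions. Of 29 genes of the same chromosome domains that were in the table, 15 were tested, 8 of them higher, 3 lower and 4 without a call, with a median log2 fold change of 0.34. Of 31 listed imprinted genes of other domains, 25 were tested, 11 of them higher, 8 lower and 6 without a call, with a median of -0.04. The higher genes of this list include IGF2R, given below as imprinted in the mouse. The median over all tested genes was -0.05, and the calls, 30 of 40, compare with the 76.5% of all tested genes. Among genes of other domains, ZDBF2, a paternally expressed zinc finger gene, fell from 18.7 ± 0.839 to 0.559 ± 0.232 CPM (log2 fold change -5.05). FAM50B, a retrogene, fell from 1.38 ± 0.317 to 0.0678 ± 0.0296 CPM (-4.29). L3MBTL1, a chromatin compaction gene (-1.52), and GET1, a gene of tail-anchored protein insertion (-1.12), fell as well. The zinc finger gene ZFAT rose by 0.88 on the log2 scale, or -0.31 on the leukocyte scale.

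Of 17 tested genes that set or keep imprints 7 were higher, 8 lower and 2 without a call, with a median log2 fold change of -0.04. This is close to the shares of all tested genes, 36.2% higher and 40.3% lower, and the leukocyte scale called 0 higher and 17 lower. HELLS, a chromatin remodeller of DNA methylation, fell from 182 ± 7.94 to 31.2 ± 0.268 CPM, and UHRF1, which brings DNMT1 to newly copied DNA, from 87.8 ± 2.12 to 31.9 ± 1.54 CPM. The demethylation enzyme TET1 fell from 12.3 ± 0.835 to 0.0339 ± 0.0294 CPM, the new-methylation enzyme DNMT3B from 12.2 ± 0.198 to 0.602 ± 0.0547 CPM and the histone demethylase KDM1B from 62.9 ± 1.49 to 29.3 ± 0.942 CPM. TET2, the related demethylation enzyme that is common in blood cells, rose from 35.9 ± 0.378 to 73.2 ± 2.71 CPM (log2 fold change 1.03, but -0.17 on the leukocyte scale). ZFP57, which guards imprints in the embryo, held 2 counts in 1 library of each group. No methylation was measured here.

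IGF2 acts through receptors and is held by binding proteins, and 24 genes of that system and of Notch signalling were tested. With TMM 9 were higher, 10 lower and 5 without a call, close to the 76.5% called among all tested genes, and the leukocyte scale called 2 higher and 19 lower. IGF1R, the signalling receptor for IGF2, fell from 19.3 ± 1.73 to 2.46 ± 0.471 CPM (log2 fold change -2.97, SE 0.113). The insulin receptor gene INSR had no call with TMM (0.04, 95% interval -0.09 to 0.18) and was lower on the leukocyte scale (-1.15). IGF2R, which takes IGF2 up for breakdown and is itself an imprinted gene in the mouse, held 20228, 19346 and 22045 counts in NC and 37336, 36198 and 35491 in KD, a log2 fold change of 0.94, against -0.25 on the leukocyte scale. Among the secreted binding proteins, IGFBP3 rose from 146 ± 4.69 to 639 ± 12.5 CPM (2.13, or 0.93 on the leukocyte scale) and IGFBP2 fell from 5.96 ± 0.606 to 0.796 ± 0.144 CPM (-2.90). The receptor substrates IRS1, from 6.57 ± 0.712 to 15.6 ± 0.323 CPM, and IRS2, from 20.7 ± 1.93 to 53.2 ± 2.17 CPM, rose with TMM, but were at 0.055 (no call) and 0.17 on the leukocyte scale, and IRS4 fell from 164 ± 2.42 to 0.169 ± 0.0770 CPM. Of the proteins that bind IGF2 mRNA, IGF2BP1 fell from 70.6 ± 2.10 to 0.186 ± 0.117 CPM and IGF2BP3 from 36.2 ± 1.45 to 1.49 ± 0.284 CPM, whereas IGF2BP2 was at 0.62 with TMM and -0.57 on the leukocyte scale. LIN28B, the let-7 antagonist, held 3783, 3399 and 3910 counts in NC and 0 in each KD library. On the Notch side, to which DLK1 belongs, the target gene HEY1 fell from 54.7 ± 2.83 to 4.25 ± 0.634 CPM. LIN28B and IRS4 are also on the HEK293-type list given above.

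**Figure D3:**
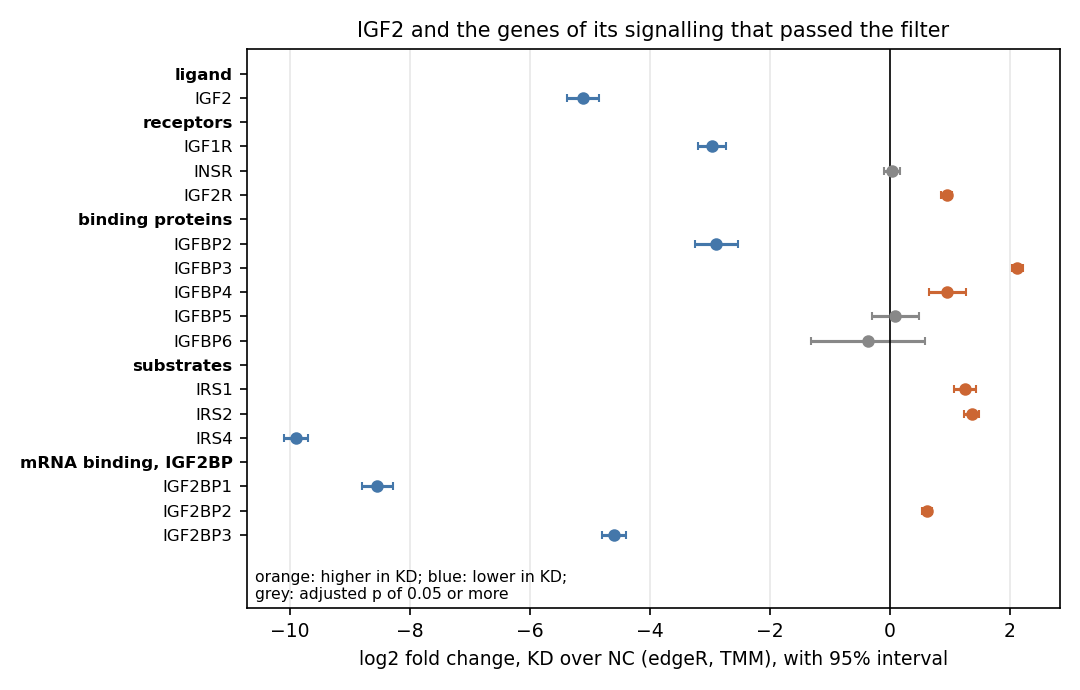
Log2 fold change, KD over NC, of IGF2 and of tested receptors, binding proteins, receptor substrates and IGF2 mRNA binding proteins, with 95% intervals from the edgeR fit on TMM-scaled counts. IGF1R, IGFBP2, IRS4, IGF2BP1 and IGF2BP3 (blue) lie below 0 with IGF2, while IGF2R, IGFBP3, IGFBP4, IRS1, IRS2 and IGF2BP2 (orange) lie above it. Of these, IGF2R (-0.25), IGFBP4 (-0.23) and IGF2BP2 (-0.57) are below 0 on the leukocyte scale, and grey points did not pass.

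The direction of a gene near the middle of the distribution depends on the scaling. The median log2 fold change of all tested genes was -0.05 with TMM, -0.23 with library sizes alone and -1.24 on the leukocyte scale. IGF2 was at -5.12, -5.31 and -6.32 on these scales, PEG10 at -1.41, -1.59 and -2.59, and PLAGL1 at -0.64, -0.83 and -1.83. These 3 genes passed and were lower under all 3 scalings, and each was below the median gene of the same scale.

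**Figure D4:**
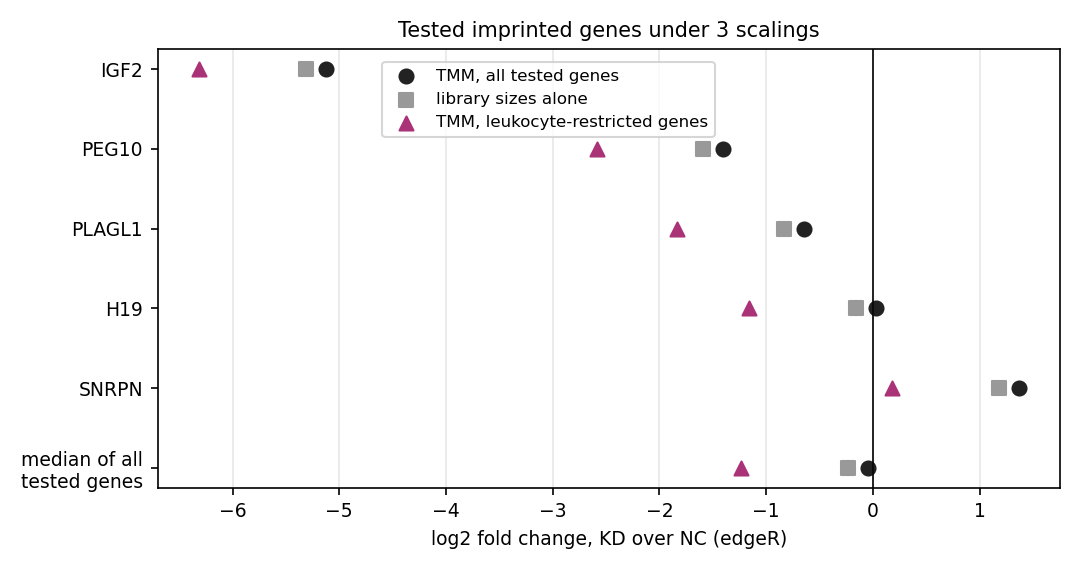
Log2 fold change, KD over NC, of the 5 tested imprinted genes and the median of all tested genes under TMM scaling (circles), library sizes alone (squares) and TMM scaling on leukocyte-restricted genes (triangles). IGF2, PEG10 and PLAGL1 stay left of 0 and left of the median under each scaling, H19 moves from 0.027 to -1.16, and SNRPN moves from 1.37 to 0.17.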

How the data were processed

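RNA from 6 libraries of PMA-treated THP-1 cells was prepared for DNBSEQ-T7 sequencing, per the labels' protocols. Reads were trimmed with fastp 0.23.0 and referred to GRCh38, per the submitters' processing notes. Not given in the sources used here are aligner, counting program, annotation release and strand setting. The deposited table holds unnormalized whole-number counts per gene, with exon coordinates and exon length, for 61267 genes, 37628972 to 42970216 counts per library. Exon length in bases was used only for levels per kilobase. Between 67.8% and 70.3% of counts from 1 to 20 were even. If each fragment was counted through both of its reads, intervals from small counts are too narrow. Libraries of a group differed beyond counting noise, with chi-square 3.24 to 6.46 per degree of freedom.

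KD was compared with NC by edgeR 4.0.16 (R 4.3.3): quasi-likelihood test with robust estimation, TMM, filterByExpr, Benjamini-Hochberg over 21905 genes, two-sided, threshold 0.05. The standard error is the log2 fold change over the square root of F. The steps were tested on simulated data. The 10 genes and all lists were chosen with earlier results of these data known. Genes named are the 10, every tested imprinted gene of their domains, up to 6 per other list with the smallest p, nearest tested neighbours, genes sharing exons, METTL1 and CDKN2A. IGF1R, INSR, IGFBP2, IRS1, IRS2, IGF2BP2, untested genes of the domains, ZFP57 and the genes of the IGF2 plot fall outside that rule and were chosen after their values were seen. Of the listed symbols, GET1 and CMKLR2-AS were each matched through a RefSeq synonym, and PWARSN and AIM1 were left out. Promoter windows came from RefSeq for 6 of the 10 genes. Alternatives were DESeq2 1.42.0 and its size factors, limma-voom (limma 3.58.1), library sizes alone, a leukocyte scale (TMM factors from 40 leukocyte-restricted genes), other filters, no robust estimation, halved counts, a replicate block and leaving out each library. Sequences and figures used Python 3.11.15.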

Additional observations from a re-analysis of the deposited data

How the results depend on the processing

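The 4 calls among the 10 genes kept their direction under all 16 alternatives that tested them. The exception in significance was SNRPN on the leukocyte scale (0.17). PEG10 was not tested with halved counts or with a mean of at least 1 CPM. The members called numbered 3 to 5, since MEST was tested and called lower when no filter was used and when NC replicate 2 or any KD library was left out. In the fits with a library left out, MEST passed the filter through its NC counts. Those calls are therefore given for themselves and not as support. IGF2 ranged from -5.20 to -4.99, SNRPN from 1.32 to 1.42, PLAGL1 from -0.68 to -0.61 and PEG10 from -1.81 to -1.23 when 1 library was left out.

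Of 27 turned signs among genes named by the rule, 20 came with the scaling and 7, of H19 and HYMAI, with 1 library left out. With library sizes alone the log2 fold change was -0.16 for H19, -0.061 for KCNQ1OT1, -0.14 for HYMAI, -0.028 for ZIM2-AS1 and -0.051 for ENSG00000280148. On the leukocyte scale it was -1.16 for H19, -1.06 for KCNQ1OT1, -0.94 for KCNQ1, -0.85 for PHLDA2, -0.054 for MKRN3, -0.075 for SNHG14, -0.93 for UBE3A, -0.46 for ATP10A, -1.15 for HYMAI, -0.25 for IGF2R, -0.31 for ZFAT, -0.17 for TET2, -1.03 for ZIM2-AS1, -0.59 for ZNF264 and -1.06 for ENSG00000280148. Among genes named outside the rule, INSR was at -0.15 with library sizes alone and -1.15 on the leukocyte scale, where IGFBP4 was at -0.23 and IGF2BP2 at -0.57. Leaving out 1 library gave -0.14 to 0.26 for H19 and -0.068 to 0.22 for HYMAI. Library sizes alone called 6212 of all tested genes higher and 10369 lower, and the leukocyte scale 760 and 18177, against 7934 and 8824 with TMM. For the other imprinted genes these splits were 14 and 14, 3 and 30, and 19 and 11. They were 3 and 10, 0 and 17, and 7 and 8 for the genes that keep imprints, and 9 and 11, 2 and 19, and 9 and 10 for IGF2 and DLK1 signalling.

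Same-numbered NC and KD libraries did not deviate together (correlations of 0.015, 0.0059 and -0.014), so no pair effect was visible. Samples can be paired without such an effect, so whether the numbers pair them cannot be told from these values. With a replicate block 16428 genes were called in place of 16758, and the same 4 of the 10 genes. At 4 counts or fewer over 6 libraries, MEG3 and PEG3 allow no comparison.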

Other observations

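NC replicate 3 held more IGF2 than the other NC libraries, 1.30 times their mean. Among 12183 genes with a mean of at least 5 CPM in NC, 19 had a ratio at least as high, IGF2 and its overlapping row ENSG00000284779 among them, where the median ratio was 1.00. The homeobox genes HOXC9 (ratio 1.41) and EMX2 (1.35) were also in that set. Both were named after their values were seen. H19 was lowest in the same library, at 1.02 CPM.

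SNORD108, a small nucleolar RNA row inside SNHG14, was higher in KD, with 17 counts in each NC library and 53, 57 and 55 in KD (0.398 ± 0.0197 against 1.40 ± 0.0540 CPM; log2 fold change 1.81, edgeR adjusted p = 2.22e-06, and 0.62 with adjusted p = 0.0493 on the leukocyte scale). SNORD108 lies within PWAR5 on the same strand, so these rows can hold the same reads. It was chosen after its values were seen.

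Some listed imprinted genes with few counts were found mostly in NC. DLX5 held 56, 39 and 68 counts in NC and 0, 0 and 2 in KD. DIRAS3 held 27, 16 and 29 counts in NC and 0, 2 and 0 in KD, and GNAS-AS1 22, 8 and 12 against 1, 0 and 0. NAP1L5, also imprinted, went the other way, from 1.19 ± 0.179 to 3.42 ± 0.375 CPM (log2 fold change 1.53, edgeR adjusted p = 4.40e-08), but without a call on the leukocyte scale (0.34, adjusted p = 0.0955). All 4 were named after their values were seen.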
